A study of Homo sapiens with 6 samples.

Results

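The complement system is a cascade of plasma and cell-surface proteins that marks cells for removal or lyses them, and 8 of its genes were examined in H1975 lung adenocarcinoma cells that had become resistant to osimertinib. The genes are C1R, C1S, C3, C5, CFI, CD46, CD55 and CD59. They were chosen by gene symbol with earlier results of these data known, and all 8 were found among the 20356 gene IDs of the deposited expression table. RNA-seq libraries came from 3 biological replicates of H1975 OR, the osimertinib-resistant derivative kept in 1 µM osimertinib, and from 3 of parental H1975 without the drug. H1975 is an established human line of EGFR-mutant lung adenocarcinoma, osimertinib inhibits mutant EGFR, and both kinds of cells grew in the same serum-supplemented medium. Effects of resistance and of the drug in the medium cannot be told apart here, and H1975 OR is a single derivative line.

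The proteases C1r and C1s form, with C1q, the C1 complex that starts the classical pathway. C3 is the protein on which all activation routes converge, and C5 is split after it to begin assembly of the membrane attack complex. Host cells limit the cascade with factor I (CFI), a plasma protease that inactivates the cleaved forms C3b and C4b, and with the surface proteins CD46, a cofactor of factor I, CD55, which dissociates the convertases, and CD59, which blocks the last step of the membrane attack complex. The liver makes most circulating complement, while epithelial and stromal cells also make C1r, C1s and C3.

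Values are FPKM, a measure per transcript length and per mapped fragments, so levels of different genes can be compared per length. The coverage in the files put the mapped sequence at an estimated 9.72 to 11.5 gigabases in H1975 OR libraries and 10.8 to 14.7 gigabases in H1975 libraries, and depth in reads is unknown. Over the 12107 tested genes, Spearman correlations of libraries lay between 0.9947 and 0.9962 within a group and between 0.8456 and 0.8538 across groups. The 8 markers of lung adenocarcinoma epithelium summed to 636 to 699 FPKM in H1975 OR and 1701 to 1899 FPKM in H1975. Of these 8, 6 were tested and all 6 were lower in H1975 OR. KRT8 averaged 384 FPKM in H1975 OR and 508 FPKM in H1975, and KRT19 averaged 4.58 FPKM in H1975 OR and 574 FPKM in H1975. EPCAM averaged 1.02 FPKM in H1975 OR and 211 FPKM in H1975. CDH1 averaged 0.0248 FPKM in H1975 OR and 68.6 FPKM in H1975, and NKX2-1 was listed at 0 in every H1975 OR library. The H1975 OR libraries lacked some defining markers of the labelled tissue. The fibroblast marker DCN was listed at 0 in all 6 libraries, the leukocyte marker PTPRC reached at most 0.0404 FPKM, and the 4 hepatocyte markers summed to at most 0.115 FPKM in H1975 OR and 0.155 FPKM in H1975. The summed level of the 8 fibroblast markers was 18.0 to 21.9 FPKM in H1975 OR and 2.43 to 2.97 FPKM in H1975, with 2 of the 8, COL1A1 and PDGFRB, higher in H1975 OR. The 6 leukocyte and macrophage markers summed to 69.8 to 79.7 FPKM in H1975 OR and 28.0 to 31.2 FPKM in H1975, with CD14 and CD68 higher and CSF1R lower in H1975 OR. Of 4 endothelial markers 3 were found, with sums of 1.08 to 1.41 FPKM in H1975 OR and 0.620 to 0.762 FPKM in H1975, and CDH5 was higher in H1975 OR. The part of these markers' changes in the results on complement genes was not tested.

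The comparison asked which genes differ in expression in the resistant cells. C3, C1S and C1R rose by 7.37 to 11.0 times in FPKM, CD59 rose by 1.55 times, CD46 and CD55 fell, and CFI fell to under 0.1 FPKM. C5 did not pass the test. In limma with Benjamini-Hochberg adjustment over all 12107 genes, 7 of the 8 genes passed an FDR of 0.05, 4 of them higher and 3 lower in H1975 OR. Across all tested genes 78.0% passed, 39.9% higher and 38.1% lower, so a count of 7 of 8 is near the background and says nothing particular about complement. By at least 1 on the log2(FPKM + 1) scale, 4 of the 8 changed, against 19.3% of all tested genes. Of these, 3 rose by as much, against 9.95% of all tested genes, and 1 fell by as much, against 9.39%. Among these 4, CFI reached the tested level of 1 FPKM only in H1975. This set the direction of its difference once it was tested, though not the size. The 8 genes were chosen with earlier results of these data known, so nothing about complement is read from these shares. The groups did not overlap for 7 of the 8 genes, against 79.8% of all tested genes. In bulk RNA, fewer cells that express a gene and less RNA per cell cannot be told apart.

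**Figure D1:**
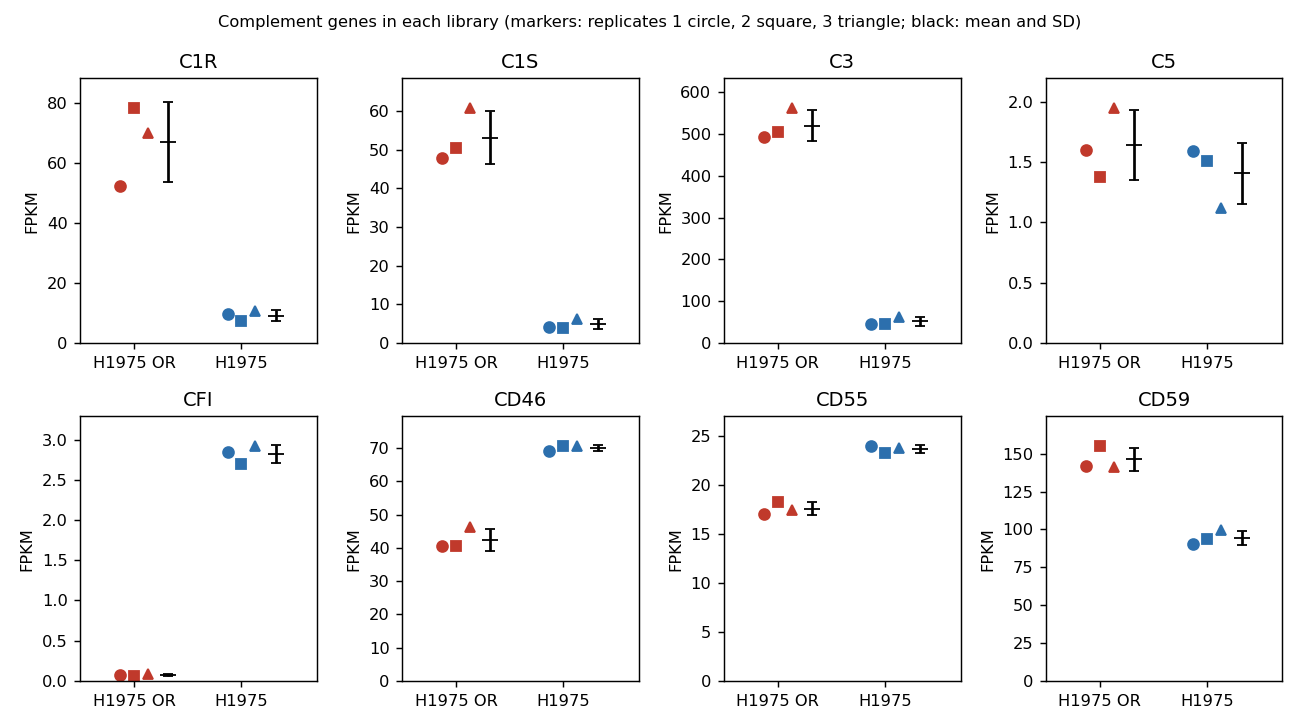
FPKM of the 8 complement genes (vertical axes, each from 0) in the 3 H1975 OR libraries (red) and the 3 H1975 libraries (blue). Markers are replicates and black bars are the mean and SD; H1975 OR lies above H1975 for C1R, C1S, C3 and CD59, below it for CFI, CD46 and CD55, and overlaps it for C5.

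C1R and C1S encode the serine proteases that C1q activates in sequence, C1r first. C1S (chr12:7096351-7178336, GRCh37, plus strand) had 47.9, 50.5 and 60.9 FPKM in H1975 OR replicates 1 to 3, against 4.19, 3.91 and 6.31 FPKM in H1975 replicates 1 to 3. The lowest H1975 OR library was far above the highest H1975 library. The means were 53.1 ± 6.86 FPKM in H1975 OR and 4.81 ± 1.31 FPKM in H1975 (SD, n = 3 each), and the log2 fold change was 3.24 ± 0.17 (SE, limma adjusted p = 3.1e-06).

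C1R (chr12:7187513-7245203, GRCh37, minus strand) had 52.5, 78.5 and 70.2 FPKM in H1975 OR, against 9.64, 7.17 and 10.5 FPKM in H1975. All H1975 OR libraries were higher, and replicate 1 was the lowest of them. The means were 67.1 ± 13.3 FPKM in H1975 OR and 9.10 ± 1.73 FPKM in H1975, with a log2 fold change of 2.75 ± 0.20 (SE, limma adjusted p = 3.2e-05). The pair summed to 120 ± 17.2 FPKM in H1975 OR and 13.9 ± 2.86 FPKM in H1975. C1R was the more abundant in every library, but less so in H1975 OR. The ratio of C1S to C1R was 0.912, 0.643 and 0.866 in H1975 OR, against 0.435, 0.546 and 0.601 in H1975, with no overlap.

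As deposited, the span of C1S overlaps EMG1 on its own strand and LPCAT3 on the other strand, and the span of C1R overlaps its paralog C1RL. Whether counting used strand is not given in the sources used here, so reads in the overlaps cannot be assigned with certainty. EMG1 averaged 23.9 FPKM in H1975 OR and 28.6 FPKM in H1975, and LPCAT3 averaged 13.6 FPKM in H1975 OR and 18.1 FPKM in H1975. Both were lower in H1975 OR, and in H1975 both were above the 4.81 FPKM of C1S. The part of their reads in the values of C1S was not tested. C1RL, a C1r-like protease gene, averaged 9.48 FPKM in H1975 OR and 5.64 FPKM in H1975.

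The RefSeq promoter table (build GRCh38.p14, 250 bases before to 50 bases after each start) held windows for 6 of the 8 genes, and no entry for C1S and C3. They were searched on both strands for the C/EBP site TTGCNNAA, the AP-1 site TGANTCA, the STAT site GAS (TTCNNNGAA), the interferon element ISRE (GAAANNGAAA) and the NF-kB consensus. The stretch of 30 bases around the C/EBP match before the upstream C1R start (chr12:7092533-7092562, minus strand) is shown because C1R had the largest rise among genes with an entry. Capitals mark the match, which lies inside exons that GENCODE v29 annotates for other transcripts.
C1R: agatcttttgtTTATGCAAatagttcattc
A C/EBP match was present in 10.5% of the 35116 promoter windows of the table. Before the other C1R start there was another C/EBP match and a GAS match. The GAS letters were found in 7.66% of all windows. These are matches of letters and not evidence of binding.

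C3 was the most abundant of the 8 genes in H1975 OR. C3 (chr19:6677715-6730573, GRCh37, minus strand) had 494, 504 and 563 FPKM in H1975 OR, against 45.1, 45.8 and 63.1 FPKM in H1975. The groups were widely separated, and H1975 replicate 3 was the highest of the parental libraries, as it was for C1R and C1S. The means were 520.1 ± 37.3 FPKM in H1975 OR and 51.4 ± 10.2 FPKM in H1975, and the log2 fold change was 3.33 ± 0.12 (SE, limma adjusted p = 1.5e-08). In the order of all 20356 genes by FPKM, C3 stood at places 99, 103 and 88 in H1975 OR, against places 1643, 1607 and 1081 in H1975. It took 0.121% ± 0.00877 of all TPM in H1975 OR and 0.0117% ± 0.00242 in H1975. The neighbouring gene GPR108 overlaps the 5′ part of the deposited span of C3 on the same strand and averaged 41.6 FPKM in H1975 OR and 18.3 FPKM in H1975. Its level was far below the 520.1 FPKM of C3 in H1975 OR and nearer to the 51.4 FPKM of C3 in H1975. Reads in this overlap cannot be assigned with certainty either.

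C5, whose split product C5b seeds the membrane attack complex, stayed near the lower limit of tested levels. C5 (chr9:123714616-123812554, GRCh37, minus strand) had 1.60, 1.38 and 1.95 FPKM in H1975 OR, against 1.59, 1.51 and 1.12 FPKM in H1975. The groups overlapped. The log2 fold change was 0.14 ± 0.099 (SE, limma adjusted p = 0.23), with a 95% interval from -0.08 to 0.35. This interval does not reach a change of 1 in either direction on the log2(FPKM + 1) scale. That scale compresses changes of low genes, so a change of 1 is a larger ratio of FPKM here than for an abundant gene. With a pseudocount of 0.1 FPKM the log2 fold change of C5 was 0.21. The FPKM of C3 was 308, 366 and 288 times that of C5 in H1975 OR, against 28.4, 30.3 and 56.4 times in H1975.

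**Figure D2:**
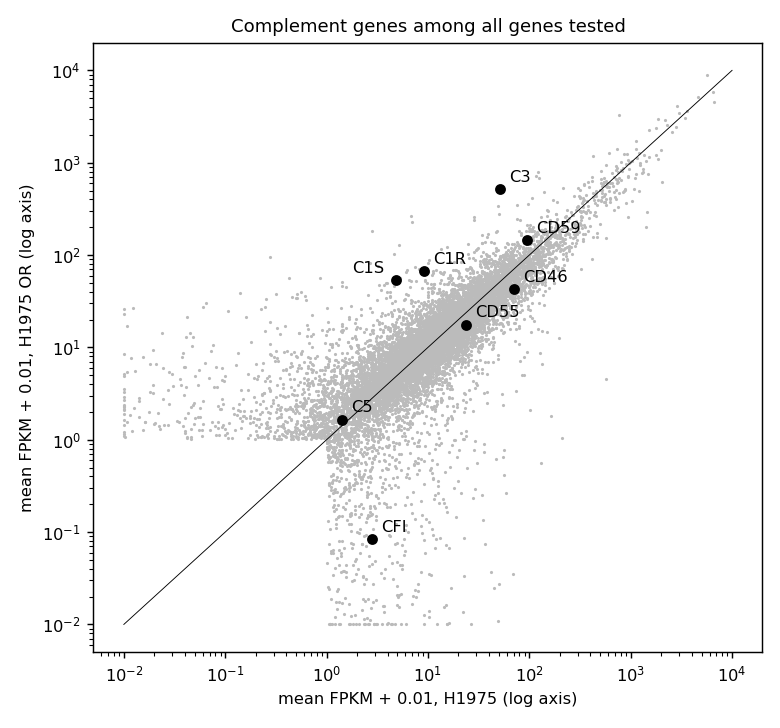
Mean FPKM + 0.01 of each tested gene (grey) and of the 8 complement genes (black) in H1975 OR (vertical, log axis) and H1975 (horizontal, log axis), with the line of equal values. C3, C1S and C1R lie well above the line, CFI lies far below it, and the others lie near it.

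CFI encodes factor I, which needs a cofactor such as CD46 to cut C3b. CFI (chr4:110661852-110723335, GRCh37, minus strand) had 0.0789, 0.0623 and 0.0823 FPKM in H1975 OR, against 2.84, 2.70 and 2.92 FPKM in H1975. The libraries of each group were close to each other and the groups were far apart. The means were 0.0745 ± 0.0107 FPKM in H1975 OR and 2.82 ± 0.115 FPKM in H1975, with H1975 higher by 37.9 times. The log2 fold change was -1.83 ± 0.068 (SE, limma adjusted p = 1.2e-10) with a pseudocount of 1 FPKM, which compresses changes of low genes, and -4.07 with a pseudocount of 0.1 FPKM. On the TPM scale it was -2.66. CFI had the largest decrease of the 8 genes, and the 70 bases of its promoter window that lie outside annotated exons are given for that reason (chr4:109802180-109802249, GRCh38.p14, minus strand).
CFI: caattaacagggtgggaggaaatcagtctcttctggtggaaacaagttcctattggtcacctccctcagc
The promoter window of CFI held no match to the motifs searched, which says only that these letters are not in it.

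The 3 membrane regulators were expressed well above CFI and C5 in both groups, and they moved apart. CD59, a small GPI-anchored protein, rose, while CD46, a transmembrane protein, and CD55, another GPI-anchored protein, fell. CD59 (chr11:33719807-33757991, GRCh37, minus strand) had 142, 155 and 141 FPKM in H1975 OR, against 90.2, 93.5 and 99.6 FPKM in H1975. Every H1975 OR library was above every H1975 library. The means were 146 ± 7.81 FPKM in H1975 OR and 94.4 ± 4.81 FPKM in H1975, with a log2 fold change of 0.62 ± 0.066 (SE, limma adjusted p = 2.2e-06).

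CD46 (chr1:207925402-207968858, GRCh37, plus strand) had 40.5, 40.5 and 46.3 FPKM in H1975 OR, against 69.1, 70.7 and 70.7 FPKM in H1975. The H1975 OR libraries were all lower, and replicate 3 was the highest of them. The means were 42.4 ± 3.33 FPKM in H1975 OR and 70.2 ± 0.939 FPKM in H1975, with a log2 fold change of -0.72 ± 0.066 (SE, limma adjusted p = 6.1e-07).

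CD55 (chr1:207494853-207534311, GRCh37, plus strand) had 17.0, 18.3 and 17.5 FPKM in H1975 OR, against 24.0, 23.3 and 23.8 FPKM in H1975. The decrease was small but the groups did not overlap. The means were 17.6 ± 0.648 FPKM in H1975 OR and 23.7 ± 0.402 FPKM in H1975, with a log2 fold change of -0.41 ± 0.058 (SE, limma adjusted p = 3.1e-05).

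CD59 was the most abundant of the 3 in every library. Their summed FPKM was 199.7, 214 and 205 FPKM in H1975 OR, against 183, 187 and 194 FPKM in H1975, a ratio of the means of 1.10. Their proportions differed more. CD59 made up 70.9% ± 1.84 of the sum in H1975 OR and 50.1% ± 1.08 in H1975, CD46 made up 20.6% ± 1.84 in H1975 OR and 37.3% ± 0.738 in H1975, and CD55 made up 8.53% ± 0.0143 in H1975 OR and 12.6% ± 0.454 in H1975. These sums and shares are descriptions with no test.

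**Figure D3:**
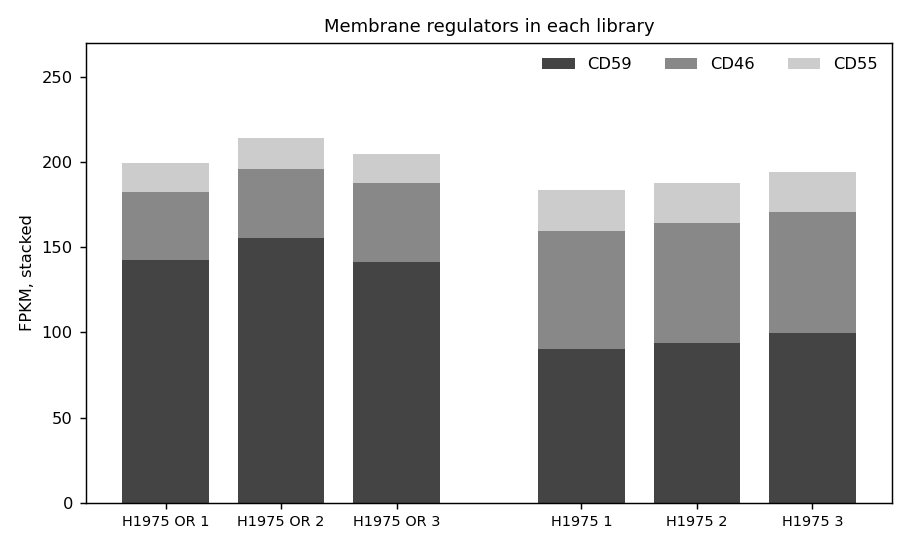
Stacked FPKM of CD59, CD46 and CD55 (vertical axis, from 0) in each H1975 OR and H1975 library. The total lies between 199.7 and 214 FPKM in H1975 OR and between 183 and 194 FPKM in H1975, while the CD59 part is larger in H1975 OR and the CD46 and CD55 parts are smaller.

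The sequences before the upstream starts of CD59 (chr11:33736492-33736729, minus strand) and CD46 (chr1:207751788-207752037, plus strand) are set side by side because these abundant regulators moved in opposite directions. Both are from RefSeq, build GRCh38.p14, without the bases that lie in annotated exons. Capitals mark a GAS match.
CD59: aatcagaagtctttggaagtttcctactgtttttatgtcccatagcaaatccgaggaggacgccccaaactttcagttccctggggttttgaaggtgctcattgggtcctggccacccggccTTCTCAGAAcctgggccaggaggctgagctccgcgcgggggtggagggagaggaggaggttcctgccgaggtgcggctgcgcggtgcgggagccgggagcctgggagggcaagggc
CD46: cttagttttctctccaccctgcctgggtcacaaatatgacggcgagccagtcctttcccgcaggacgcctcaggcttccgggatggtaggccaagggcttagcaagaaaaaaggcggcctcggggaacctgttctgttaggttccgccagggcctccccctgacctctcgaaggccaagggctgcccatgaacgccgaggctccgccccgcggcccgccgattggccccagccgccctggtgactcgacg
Both stretches were rich in G and C, with 61.8% in CD59 and 64.8% in CD46. The GAS letters began at position -128 from this CD59 start, and no motif searched was found in the windows of CD46, CD55 and C5. AP-1 matches, present in 7.71% of all windows, were found around a downstream start of CD59, and C/EBP matches before another. The NF-kB consensus and the ISRE, present in 11.3% and 3.57% of all windows, had 0 matches in the 12 windows of these genes.

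**Figure D4:**
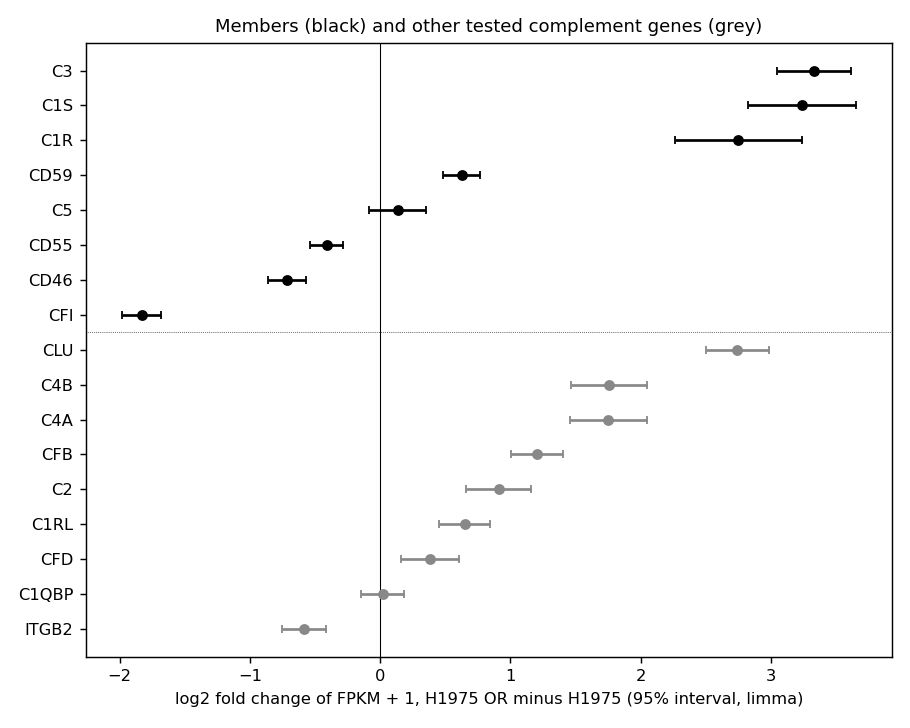
Log2 fold change of FPKM + 1, H1975 OR minus H1975 (horizontal axis), with 95% intervals from limma, for the 8 genes (black) and the other tested complement genes (grey). C3, C1S, C1R and CLU lie highest, CFI lies lowest, and the intervals of C5 and C1QBP include 0.

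The other genes of the pathway were taken from a list of 51 symbols, found as 52 gene IDs. Most were low: 43 IDs were under 1 FPKM in every library, and 15 were listed at 0 in all 6. The C1q chains C1QA, C1QB and C1QC and the terminal component C9 were listed at 0 in all 6 libraries, and no terminal component from C6 to C9 reached 1 FPKM in a library. Of the 9 tested genes 7 rose, 1 fell and 1 did not pass, where 78.0% of all tested genes passed, 39.9% higher and 38.1% lower, so the count passed says nothing particular about these genes. Their median log2 fold change was 0.91, against 0.01 over all 12107 tested genes. C4A and C4B reached the tested level only in H1975 OR. This set the direction of their differences once they were tested, though not the size. Without C4A and C4B 5 of 7 rose and the median was 0.65. The medians 0.91 and 0.65 are the values of C2 and of C1RL. The spans of C2 and C1RL overlap those of CFB and C1R, so their reads cannot be assigned with certainty. The list was chosen with earlier results of these data known, so nothing about complement is read from the medians.

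CLU, clusterin, a secreted chaperone that also binds the assembling membrane attack complex, had 19.5, 15.2 and 20.5 FPKM in H1975 OR, against 1.60, 1.96 and 2.09 FPKM in H1975 (log2 fold change 2.74 ± 0.11 SE, limma adjusted p = 1.6e-09). CFB, factor B, the protease of the alternative pathway convertase, had 103, 114 and 127 FPKM in H1975 OR, against 46.4, 46.0 and 55.3 FPKM in H1975 (log2 fold change 1.20 ± 0.091 SE, limma adjusted p = 1.6e-07). A second ID with the symbol CFB was listed at 0 throughout. Both CLU and CFB were higher in every H1975 OR library than in any H1975 library.

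C4A and C4B encode nearly identical forms of C4, which C1s cuts, and reads cannot be split between them with certainty. C4A averaged 3.32 ± 0.891 FPKM in H1975 OR and 0.265 ± 0.0405 FPKM in H1975, and C4B averaged 3.23 ± 0.863 FPKM in H1975 OR and 0.233 ± 0.00633 FPKM in H1975. C2, the protease of the classical convertase, averaged 3.35 ± 0.769 FPKM in H1975 OR and 1.29 ± 0.108 FPKM in H1975. CFD, factor D, which cuts factor B, averaged 3.58 ± 0.522 FPKM in H1975 OR and 2.51 ± 0.388 FPKM in H1975. C2, C1RL and CFD rose (limma adjusted p from 1.7e-05 for C2 to 0.0043 for CFD). As deposited, the span of C2 overlaps that of the far more abundant CFB on the same strand, so reads of C2 cannot be assigned with certainty. ITGB2, the beta chain of the C3b fragment receptors CR3 and CR4, fell to 5.71 ± 0.663 FPKM in H1975 OR, against 9.04 ± 0.335 FPKM in H1975 (limma adjusted p = 1.8e-05). Its partner chains ITGAM and ITGAX were under 1 FPKM in every library. C1QBP, a mostly mitochondrial protein that can bind C1q, averaged 196 ± 13.1 FPKM in H1975 OR and 193 ± 14.5 FPKM in H1975 and did not pass (limma adjusted p = 0.81).

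C1R and C1S lie next to each other, 9.18 kb apart in the deposited GRCh37 coordinates, and CD46 and CD55 lie 391 kb apart on chromosome 1. The tested genes within 500 kb of each of the 8 genes, by midpoints, are described beside them. Of 69 such neighbours 35 were higher and 23 lower in H1975 OR, and 11 did not pass, where 39.9% of all tested genes were higher and 38.1% lower. The counts around each gene are descriptions of position, with nothing read from them about its surroundings. Around C1R, 13 of 23 neighbours rose and 5 fell. Around C1S, 14 of 27 neighbours rose and 7 fell, with a median log2 fold change of 0.23 and a highest value of 2.07, below those of C1R and C1S. Around C3, 12 of 17 rose and 5 fell, with values from -3.92 for CRB3 to 1.95 for CD70 and a median of 0.52, also below that of C3. Around CFI, 2 of 6 rose and 3 fell, with a lowest value of -1.39 for CASP6. Around CD55, 2 of 5 rose and 3 fell, and the only tested neighbour of CD46, PLXNA2, had a log2 fold change of 0.16. Around CD59, 2 of 4 rose and 1 fell, and around C5, 2 of 9 rose and 4 fell.

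**Figure D5:**
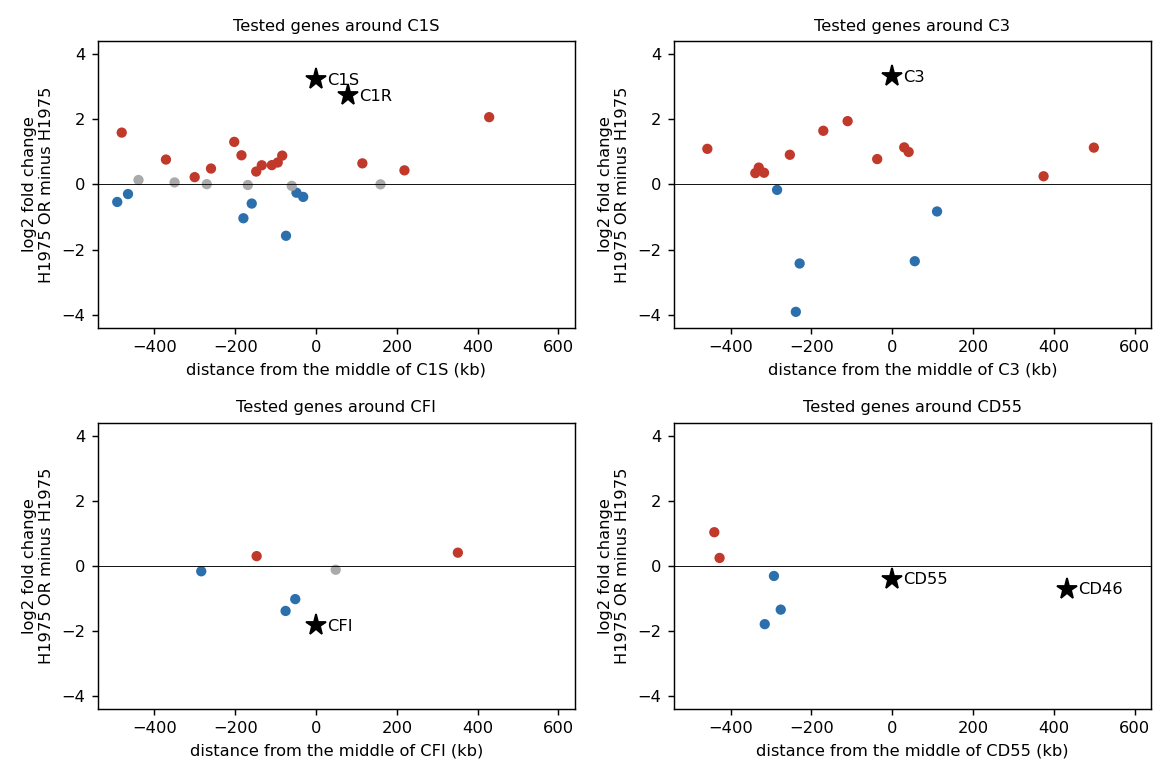
Log2 fold change, H1975 OR minus H1975, of tested genes (points; red higher, blue lower, grey not passed) against their distance in kb from the middle of C1S, C3, CFI and CD55, with complement genes as stars. C3, C1S and C1R lie above all their tested neighbours and CFI lies below all of its own.

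The tested genes most like C3 in level and pattern, by the mean absolute difference of log2(FPKM + 1) over the 6 libraries, were SELM (0.36) and MYC (0.58). SELM averaged 341 ± 18.9 FPKM in H1975 OR and 48.7 ± 3.47 FPKM in H1975, and MYC averaged 349 ± 54.5 FPKM in H1975 OR and 76.5 ± 5.46 FPKM in H1975. Those most like CFI were RNF144A (0.035) and TMPRSS13 (0.044). RNF144A averaged 0.0765 ± 0.0122 FPKM in H1975 OR and 2.66 ± 0.141 FPKM in H1975, and TMPRSS13 averaged 0.0356 ± 0.0143 FPKM in H1975 OR and 2.80 ± 0.239 FPKM in H1975.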

How the data were processed

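RNA-seq was run on 3 libraries of H1975 OR and 3 of H1975, grouped by sample title. The series design calls them biological replicates. The deposited values are FPKM in a series table, and library files that, per the file headers, also give coverage and TPM. The submitters' processing notes give the build GRCh37 and list DESeq without saying what it was used for. Not given in the sources used here is how reads were aligned and counted, with which annotation and with what use of strand. The series table and the library files differed by more than 1e-05 FPKM in 1 to 4 genes per library.

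No counts of reads were used, so limma 3.58.1 in R 4.3.3 was run on log2(FPKM + 1) for the 12107 genes whose mean reached 1 FPKM in H1975 OR or in H1975. The model held the group alone, variances were moderated robustly around their trend with level, and two-sided p-values were adjusted by Benjamini-Hochberg over all genes tested, with calls at an FDR of 0.05. Fold changes are H1975 OR minus H1975. The pseudocount understates changes of low genes. Without counts there is no interval for counting error. The p-values rest on the spread of 3 libraries each of a line and of its single derivative. The scripts were tested on simulated data.

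The genes and lists were chosen with earlier results of these data known. Named are the 8 genes, the tested genes of the wider complement list past the FDR (up to 12 by size of change), and the 2 tested genes closest in pattern to the members with the largest rise and fall. C1QBP, SERPING1 and other listed genes named without a call were chosen after their values were seen, as were neighbouring and overlapping genes and markers. Alternatives were a replicate block, other pseudocounts, filters, scaling and moderation, TPM, and leaving out each library.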

Additional observations from a re-analysis of the deposited data

How the results depend on the processing

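The direction and the call of each of the 8 genes held under all alternatives in which the gene was tested. These were 13 for 7 of the genes and 12 for CFI, which drops out when both groups must reach 1 FPKM. In that setting 6 of 7 genes passed, against 8217 of 10829 over all tested genes. Log2 fold changes ranged from 3.25 to 3.48 for C3, 3.13 to 3.46 for C1S, 2.60 to 2.91 for C1R, 0.58 to 0.66 for CD59, -0.78 to -0.68 for CD46, -0.44 to -0.39 for CD55, and -4.07 to -1.81 for CFI. C5 stayed between 0.05 and 0.21 (limma adjusted p from 0.097 to 0.68). Leaving out each library in turn gave 7 of 8 genes in every case, against 8985 to 9261 of the 12082 to 12124 genes tested. The count of the wider complement list moved with the number of its genes tested. In the reported fit 8 of 9 passed, against 9448 of 12107 over all tested genes. With no filter on low values 17 of 37 passed, against 11014 of 18038 over all tested genes. On the TPM scale 13 of 14 passed, against 10172 of 12971. Nothing about complement is read from these counts. Median-of-ratios scaling moved the median log2 fold change of all tested genes to -0.01. With the replicate number as a block, 9422 genes passed in all, against 9448 without it, and the calls of the 8 genes did not change. Libraries with the same number did not deviate together (correlations of -0.1355, 0.07612 and 0.099), so the numbers were not taken as pairing. Depth in reads is unknown, which limits what can be said of genes under 1 FPKM.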

Other observations

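Several complement genes too low to be tested still separated the groups. They are given as values with no test, and were chosen after their values were seen. C3AR1, the receptor of the C3 fragment C3a, had 0.335, 0.704 and 0.511 FPKM in H1975 OR, against 0.0455, 0.0249 and 0.0208 FPKM in H1975. VTN, vitronectin, which binds the forming membrane attack complex, had 0.767, 0.631 and 0.892 FPKM in H1975 OR, against 0.0134, 0.0226 and 0.0818 FPKM in H1975. SERPING1, the inhibitor of C1r and C1s, had 0.311, 0.317 and 0.357 FPKM in H1975 OR, against 0.0446, 0.0271 and 0.110 FPKM in H1975, levels far below those of C1R and C1S in the same libraries. SUSD4, a membrane regulator, had 0.206, 0.167 and 0.217 FPKM in H1975 OR, against 0.499, 0.717 and 0.577 FPKM in H1975.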
